A study of Mus musculus with 2 samples.

Results

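The genes described here encode the surface proteins by which long-term haematopoietic stem cells (LT-HSC, marrow cells able to regenerate all blood lineages durably after transplantation) are sorted, or by which progenitors are set aside. The list held 9 genes (Kit, Ly6a, Slamf1, Cd34, Cd48, Flt3, Procr, Tek and Eng), and every array sequence whose annotation carried a listed gene name was taken. This gave 17 sequences of 8 genes, among 44170 sequences and 24171 named genes in all. Flt3 was not analysed here.

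LT-HSC of the C57/BL6 strain were compared between mice lacking WASH, an activator of actin branching on endosomes, and wild type control mice, with 1 NimbleGen expression array for each genotype. Per the labels, marrow came from femurs, the cells were purified by flow cytometry and total RNA was labelled with Cy3. The labels used here give neither the antibodies of the sort, nor how the WASH gene was deleted, nor the age, sex or number of the mice. With 1 array a group no difference below could be set against variation between animals, and no test, standard error or p-value is given.

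Stem cell sorting rests on combinations of such proteins, because none of them is unique to the stem cell. Kit (the receptor of stem cell factor) and Sca-1, the product of Ly6a, are found together on the stem and early progenitor cells that lack lineage markers. Within that pool, CD150 (Slamf1), the protein C receptor (Procr), the angiopoietin receptor Tie2 (Tek) and endoglin (Eng) mark the stem cell end, whereas CD48, CD34 and Flt3 appear as cells become multipotent progenitors. An LT-HSC sort in the mouse therefore usually keeps cells with the former proteins and leaves out cells with the latter.

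Values are intensities after RMA (robust multi-array average), on a linear scale, and each was set against the probes of random sequence on its own array. Those 5000 probes read 71.3 with control and 75.7 with knockout RNA, a shift of 0.09 on the log2 scale, while the array medians were 137 on both. Washc1, the targeted gene, gave 119 in control and 107 in knockout cells (-0.15 in log2), or 1.67- and 1.42-fold the level of random sequence. The position of its probes relative to the deletion is unknown here, and the genotype labels could not be checked by it.

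Of the 17 marker sequences, 9 were above the random-sequence level on both arrays (52.9%, against 64.3% of all sequences), 2 on the control array only and 6 on neither (35.3%, against 22.3% of all sequences). Of the 8 genes, 5 had a sequence above that level on both arrays: Kit, Ly6a, Slamf1, Cd34 and Eng. Cd48 was above it on the control array alone, and Procr and Tek were on neither. Probes differ in how strongly they bind, so an intensity cannot rank these genes by RNA amount, and a value under the random-sequence level does not show that a transcript is absent. Sequences of a gene are numbered here from the brightest.

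**Figure D1:**
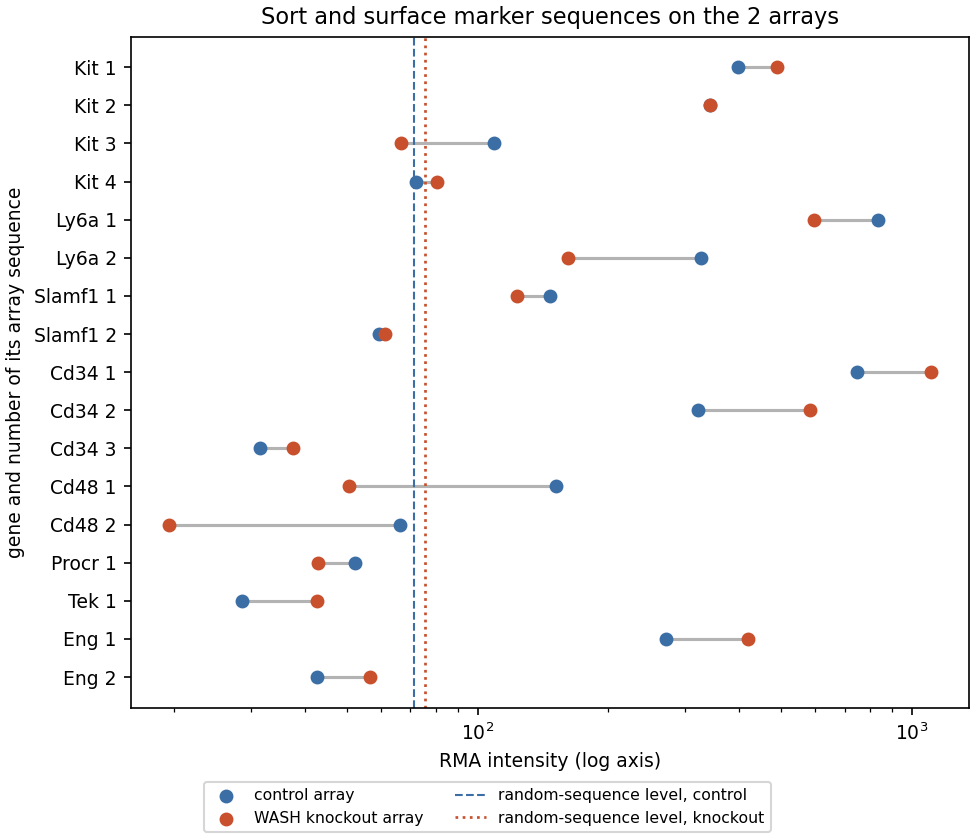
RMA intensity (log axis) of each of the 17 sequences on the control array (blue) and the knockout array (red), with the random-sequence level of each array as a vertical line. Cd48 sequence 1 crosses from above the line in control cells (152) to below it on the knockout array (50.6), while Procr and Tek lie to the left of both lines.

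Cd48 was lower on the knockout array with its brighter sequence, which was above the random-sequence level in control cells only. CD48 is an adhesion protein of most mature blood cells and committed progenitors, and the binding partner of CD244 and CD2. Its sequences lie on chromosome 1 from 173612157 to 173635388 (mouse build MM9). Sequence 1 was at 152 in control and 50.6 in knockout cells, which is 2.13 and 0.67 times the random-sequence level and -1.58 in log2. Because the knockout value was under the random-sequence level, the fold is given as a bound (a rule set after the values were seen): the control value was at least 2.01-fold higher. Sequence 2 was at 66.2 and 19.5, under the random-sequence level on both arrays, so its difference has no measured size or direction. On the knockout array that value stood at percentile 0.15 of all sequences, against percentile 25.8 on the control array.

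Cd48 was 1 of 6 marker genes in the detected range (a gene whose brightest sequence lay above the median of its array on at least 1 array). It was the only one of these 6 at least 2-fold lower (16.7%), beside 7.29% of all 16245 genes in that range. No marker gene was 2-fold higher, beside 6.41% of all genes. Cd48 (152) and Slamf1 (147) entered the range by their control values alone, against a control median of 137. Entry and the lower direction of these genes thus rest on the same values, and the count is no support for a decrease. The call of Cd48 also uses its knockout value as read, under the random-sequence level. Such differences were more frequent among dim genes: with a mean intensity under 200, a split made after the values were seen, 11.6% of genes were lower and 11.1% higher by 2-fold, against 5.68% and 4.64% of brighter genes. Cd48 (mean intensity 87.7) and Slamf1 (135) belong to the dim range, and the other 4 detected marker genes to the brighter range. Counted by sequence, 2 of the 9 marker sequences in that range (Cd48 sequence 1 and Ly6a sequence 2) passed 2-fold downwards, as 8.20% of all sequences did, and none passed it upwards, as 6.77% did.

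The other genes of the SLAM family, to which Cd48 and Slamf1 belong, differed by less. Most of them lie in a row on chromosome 1. In that row 8 neighbours of these genes, among them Gm15431, which is not a listed SLAM gene, were represented by 12 sequences. None of these 12 reached 2-fold, beside 6.77% higher and 8.20% lower of all sequences in the detected range. Some of the 12 lie outside that range, so the count and the shares cover unlike sets. On the knockout array 7 of the 12 were higher and 5 lower. Their log2 differences ran from -0.35 to 0.58, with 4 of them under the random-sequence level on both arrays. Slamf7, the SLAM gene listed next to Cd48 on one side, was at 287 and 372 (control, then knockout, as in all pairs below) with its brightest sequence, 0.38 in log2. Cd244a, which encodes the CD48 partner CD244, was at 434 and 377 (-0.20). Over all detected genes, 8402 were higher and 7839 lower, with a median of 0.03. The 6 detected genes of the list of SLAM genes and CD48 partners, without the markers themselves, had a median of 0.16. Of these, 3 were higher and 3 lower. The largest differences of that list were those of Cd2 (317 and 546, 0.79) and Slamf9 (187 and 280, 0.58).

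Slamf1 was close to the random-sequence level on both arrays. CD150, its product, is a receptor that binds itself on neighbouring cells and is a usual positive marker in LT-HSC sorts. Sequence 1 (chromosome 1, 173697321 to 173729968) was at 147 in control and 123 in knockout cells, 2.06 and 1.63 times the random-sequence level (-0.26). Sequence 2 was at 59.3 and 61.2, under the random-sequence level on both arrays. Slamf1 thus has 1 measured difference, in the lower direction and well short of 2-fold.

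**Figure D2:**
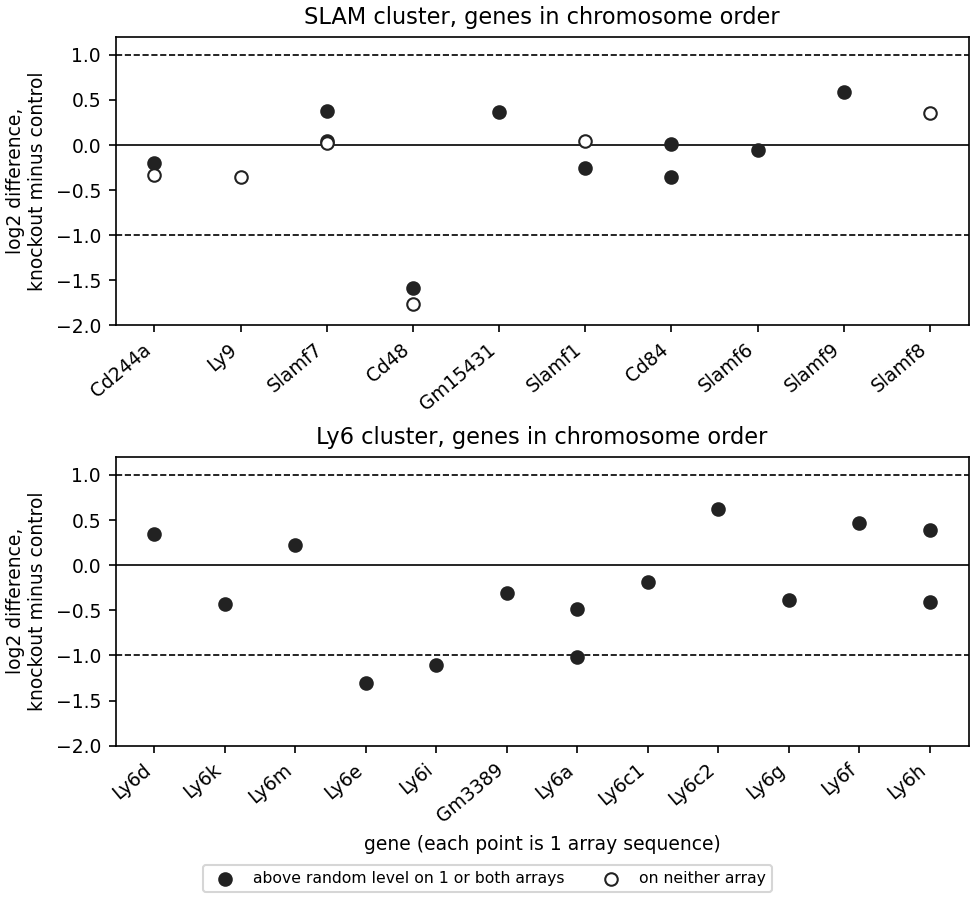
Log2 difference (knockout minus control, vertical axis) of each array sequence of the SLAM row on chromosome 1 (with Gm15431) and the Ly6 row on chromosome 15 (with Gm3389). Genes are in chromosome order and not to scale. Filled points were above the random-sequence level on at least 1 array, and dashed lines mark 2-fold. The Cd48 points lie near -1.6 and -1.8, from knockout values under the random-sequence level, while the other 12 non-marker sequences of that row lie between -0.35 and 0.58; in the Ly6 row Ly6e, Ly6i and Ly6a sequence 2 lie below -1.

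Ly6a was lower on the knockout array with both of its sequences. Sca-1, which it encodes, is a small protein held to the membrane by a lipid anchor, and interferons are known to raise it. Sequence 1 (chromosome 15, 74825306 to 74828318) was at 835 in control and 596 in knockout cells, 11.7 and 7.87 times the random-sequence level (-0.49). Sequence 2, annotated to the same interval, was at 328 and 162, 4.59 and 2.14 times that level, a difference of -1.02. Both were above the random-sequence level on both arrays, but the sizes differ by 0.53. Sequence 2 was the closer to that level. With the level subtracted, the differences were -0.55 for sequence 1 and -1.58 for sequence 2.

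Ly6a lies in a cluster of related genes, and some of its neighbours were lower too. Of 12 other sequences of 11 genes in this row, 7 were lower and 5 higher. At least 2-fold lower were 2 of the 12, beside 8.20% of all sequences in the detected range, though a sequence of Ly6h (101 and 76.1) lies outside that range. Ly6i, 2 genes away from Ly6a in the row, was at 2722 and 1261 (-1.11), and Ly6e was at 272 and 110 (-1.31). Ly6c2, a monocyte gene of the same cluster, was higher (402 and 617, 0.62), while Ly6c1 beside it was at 394 and 348 (-0.18). The 10 other genes of the Ly6 list had a median of 0.02, with 5 higher and 5 lower. These genes resemble each other in sequence and the probe sequences were not used here, so signal shared between Ly6a and its relatives cannot be told apart from signal of its own.

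Kit was higher by 0.30 in log2 with its brightest sequence and level with the next. Its 4 sequences lie on chromosome 5 between 75971038 and 76052746. Sequence 1, annotated to a stretch of 5913 bases towards one end of the gene, was at 398 in control and 489 in knockout cells (0.30). Sequence 2, which spans 80421 bases, was at 344 and 342 (-0.005). Sequence 3 was at 109 in control and 66.6 in knockout cells, where it was under the random-sequence level, so that the control value was at least 1.44-fold higher. Sequence 4 was at 72.3 and 80.7, 1.01 and 1.07 times the random-sequence level. The sequences of Kit thus did not share a direction: sequence 1 was higher and sequence 3 lower on the knockout array.

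Cd34 was higher on the knockout array with both sequences that were above the random-sequence level. CD34 is a sialomucin, a sugar-rich protein that binds selectins, and is low or absent on adult mouse LT-HSC. Sequence 1 (chromosome 1, 196765014 to 196787486), annotated as transcript variant 1, was at 746 in control and 1105 in knockout cells, 10.5 and 14.6 times the random-sequence level (0.57). Sequence 2 was at 322 and 581, 4.52 and 7.69 times that level, a difference of 0.85. Sequence 3 was at 31.6 and 37.5, under the random-sequence level on both arrays, and gives no direction. Of its relatives, Podxl, which encodes podocalyxin, was lower on the knockout array (455 and 331, -0.46). Emcn, which encodes endomucin, was lower with its brighter sequence (773 and 541, -0.52). The other sequence of Emcn differed by 0.76, the same direction as Cd34, from a control value under the level of random sequence. The sequences of Emcn thus did not share a direction.

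Eng was likewise higher on the knockout array with the sequence that could be measured. Endoglin is a co-receptor for ligands of the TGF-beta and BMP family. Sequence 1 (chromosome 2, 32502212 to 32537642) was at 271 in control and 420 in knockout cells, 3.80 and 5.55 times the random-sequence level (0.63). Sequence 2 was at 42.8 and 56.6, under the random-sequence level on both arrays, and gives no direction. Neither Cd34 nor Eng reached 2-fold with any sequence.

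Among the sequences above the random-sequence level on both arrays, both of Ly6a were lower and both of Cd34 higher on the knockout array, while Eng and Slamf1 had only 1 such sequence. Of 8336 detected genes with several sequences, 19.5% were higher with every sequence, at any size and level, and 18.6% lower. Counted in the same way, 2 of 6 marker genes were higher with every sequence and 2 lower. A shared direction alone therefore says little about these genes. Log2 differences between sequences of 1 gene had a spread of 0.66 (pooled SD over 12311 sequences of 4969 genes). Sequence 1 of Cd34, Eng, Ly6a (-0.49), Slamf1 and Kit lay inside it. Cd34 sequence 2, Ly6a sequence 2 and the bound of Cd48 sequence 1 lay outside it. It is 1 SD among the sequences of a gene, so lying outside it is no test of a difference. This spread covers probe noise and differences between transcripts, and no difference between animals or sorts.

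**Figure D3:**
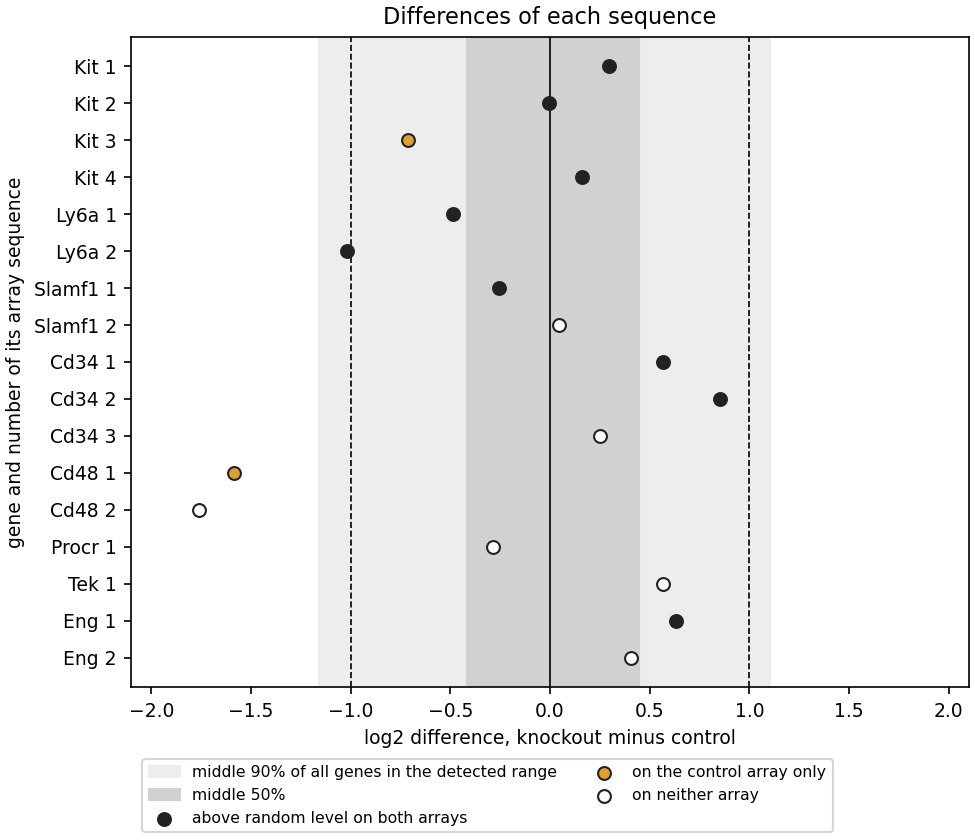
Log2 difference (knockout minus control) of each of the 17 sequences; shading gives the middle 50% and 90% of all genes in the detected range (brightest sequence), and dashed lines mark 2-fold. Cd48 is plotted outside the 90% range (-1.16 to 1.10), with knockout values under the random-sequence level, and the filled points, above the random-sequence level on both arrays, run from -1.02 to 0.85.

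Promoters are shown for Cd34, Eng and Cd48, chosen after the values were seen as the 3 detected genes whose brightest sequences differed most. The table matched 7 of the 8 genes, and Ly6a was not among them. Each runs from 250 bases before to 50 bases after the gene's start, on the plus strand, and comes from RefSeq on GRCm38.p6, a later build than that of the array. A script looked on both strands for 3 motifs, none overlapping another here. The first was AGATAA, which GATA factors bind. The second was CACGTG, the E-box of Myc and its partners. The last was GGAAGT, which ETS factors bind. Capitals mark the matches. The intervals are chr1:194938571-194938870 for Cd34, chr2:32646345-32646644 for Eng and chr1:171681742-171682041 for Cd48.
Cd34: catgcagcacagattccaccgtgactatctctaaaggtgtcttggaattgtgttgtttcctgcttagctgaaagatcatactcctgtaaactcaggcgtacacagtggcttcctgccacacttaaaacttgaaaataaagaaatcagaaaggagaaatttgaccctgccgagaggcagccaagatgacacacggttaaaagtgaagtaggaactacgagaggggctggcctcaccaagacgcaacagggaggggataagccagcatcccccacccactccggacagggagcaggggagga
Eng: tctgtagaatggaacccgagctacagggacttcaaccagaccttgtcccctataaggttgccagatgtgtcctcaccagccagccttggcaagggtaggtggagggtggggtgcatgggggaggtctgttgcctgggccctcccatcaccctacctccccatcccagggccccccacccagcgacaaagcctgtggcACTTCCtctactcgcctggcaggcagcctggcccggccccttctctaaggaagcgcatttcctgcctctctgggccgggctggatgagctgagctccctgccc
Cd48: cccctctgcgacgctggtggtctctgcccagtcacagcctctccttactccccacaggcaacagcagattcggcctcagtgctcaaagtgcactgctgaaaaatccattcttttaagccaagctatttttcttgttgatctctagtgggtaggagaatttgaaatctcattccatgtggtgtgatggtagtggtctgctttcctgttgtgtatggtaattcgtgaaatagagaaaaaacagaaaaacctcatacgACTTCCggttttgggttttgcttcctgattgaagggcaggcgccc
Eng held GGAAGT on the minus strand, starting at position -53 from the start of the gene, and Cd48 on the minus strand at position 6. GGAAGT occurs in 23.8% of the 32851 RefSeq promoter windows of this length, AGATAA in 11.2% and CACGTG in 7.15%. No match to any of the motifs was found in the window of Cd34, which says only that these letters are not there.

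Procr and Tek could not be followed. Procr, the endothelial protein C receptor and a marker of stem cells of high purity, has 1 sequence (chromosome 2, 155577078 to 155581196), which was at 52.3 in control and 42.9 in knockout cells, 0.73 and 0.57 times the random-sequence level. Tek, the receptor tyrosine kinase Tie2, has 1 sequence (chromosome 4, 94405985 to 94541628), at 28.7 and 42.6, or 0.40 and 0.56 times that level. Both lie under the random-sequence level on both arrays, so neither direction is a measurement. Esam, an adhesion gene that also marks LT-HSC, was above the random-sequence level on both arrays, at 447 and 742 (0.73).

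**Figure D4:**
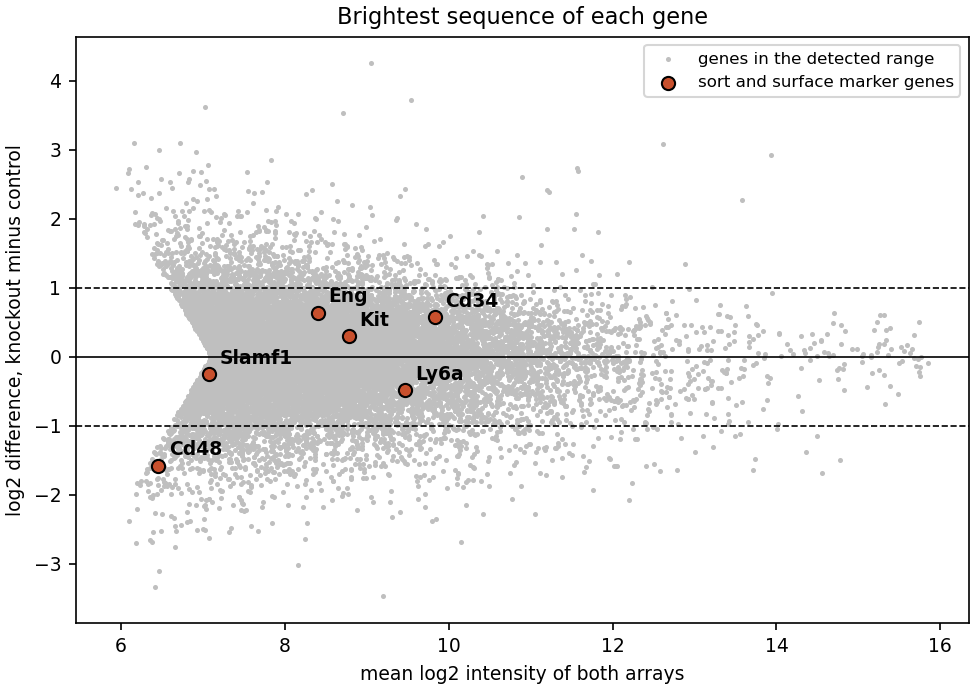
Mean log2 intensity of both arrays (horizontal) against the log2 difference (knockout minus control, vertical) for the brightest sequence of every gene in the detected range, with the 6 detected marker genes in red; dashed lines mark 2-fold. Cd48 lies at the dim edge, where differences scatter widely, and the other 5 lie within 2-fold.

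The ligands and signalling partners of these receptors differed in both directions. Of 23 such genes, 14 were in the detected range, 8 of them higher and 6 lower, with a median of 0.18. By 2-fold, 1 was higher and 2 were lower, beside 6.41% and 7.29% of all genes. Proc, which encodes the protein C that Procr binds, was at 116 in control and 414 in knockout cells (1.84), from 1 sequence. Tgfb1, whose product signals through a receptor complex that includes endoglin, was at 226 and 44.5; the knockout value was under the random-sequence level, so the control value was at least 2.99-fold higher. Lyn, a kinase downstream of Kit, was at 2225 and 985 (-1.18), while another of its 3 sequences was close to the random-sequence level on both arrays. The gene of the Kit ligand itself, Kitl, was at 262 and 285 (0.12), and that of the Flt3 ligand, Flt3l, at 370 and 439 (0.25), but another sequence of Flt3l differed by -0.91. The angiopoietin genes Angpt1 and Angpt2 were under the random-sequence level on both arrays, like Tek.

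Other genes of stem cell surface proteins showed no common direction. Of 26, 25 were in the detected range, 13 higher and 12 lower, with a median of 0.04. By 2-fold, 3 were higher and 2 lower, beside 6.41% and 7.29% of all genes, and Prom1 and Il6st, which are 2 of the 3, had other sequences that were lower. The tetraspanin gene Cd9 was at 4578 and 1740 (-1.40) and the adhesion gene Alcam at 303 and 117 (-1.38). Jam3 was at 53.1, under the level of random sequence, in control cells and at 150 in knockout cells, at least 2.11-fold higher, while its other sequence was under that level on both. Of the progenitor surface genes, 6 of 7 measured were detected, 3 higher and 3 lower, with a median of 0.06. The interleukin-7 receptor gene Il7r was at 120 and 217 (0.85), and its other sequence was higher too. Fcgr2b, an Fc receptor gene, was the only one at 2-fold (1777 and 393, -2.18), but its 3 sequences did not share a direction. The receptor tyrosine kinase genes most like Kit and Flt3 were Csf1r (248 and 563, 1.19), Pdgfra (416 and 548, 0.40) and, under the detected range, Pdgfrb (92.1 and 97.3, 0.08). The other sequences of Csf1r and Pdgfra were all lower on the knockout array or under the level of random sequence.

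Markers of cells that the sort should leave out were present on both arrays, and some differed between them. The erythroid list had 15 of 16 measured genes in the detected range, all higher on the knockout array. By at least 2-fold 12 were higher, beside 6.41% of all genes in that range. The list median was 1.76, with sums of 18112 and 91512. Hbb-b1 (beta-globin) was at 5699 and 43218 (2.92), Hba-a1 (alpha-globin) was higher by 2.41 and Car2, a carbonic anhydrase gene, by 2.32 in log2, while Car1 was at least 2.57-fold higher. The granulocyte and monocyte list had 14 of 17 genes detected, 10 lower and 4 higher, with a median of -0.84 and sums of 148841 and 60682. By at least 2-fold, 4 were lower and 1 higher, beside 7.29% and 6.41% of all detected genes. S100a8, a neutrophil protein gene, was at 47334 and 16696 (-1.50), and S100a9, Lcn2 and Ngp, of neutrophils too, differed by -1.39, -1.65 and -1.65. The 4 higher genes of that list were Csf1r (1.19), Itgam (0.77), Fcgr3 (0.55) and Ccr2 (0.25). Csf1r, Itgam and Fcgr3 each also had a lower sequence. The list thus did not share 1 direction. Endoglin is also found on early erythroid cells and CD48 on granulocytes and monocytes, and Eng was higher and Cd48 lower on the knockout array. The part of those cells in either difference was not tested. In RNA of bulk cells, a change in the number of cells of a type and a change of RNA per cell cannot be told apart.

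The lists of other cells were also measured, beginning with those that carry these markers. Endothelial cells express Tek, Eng, Procr and Cd34; their list, with stromal genes, had 10 of 14 genes detected, 6 higher and 4 lower, a median of 0.05 and sums of 6077 and 6241; the VEGF receptor gene Kdr differed by 1.33, its other sequence in the opposite direction, and the collagen gene Col1a1 by -0.84. Mast cells express Kit; their list, with basophil genes, had 5 of 9 detected, 4 lower, a median of -0.94 and sums of 5645 and 3648, with Prg2 at -1.08 and Cpa3, Fcer1a and Tpsb2 under the random-sequence level on both arrays. The lineage exclusion list (antigens against which sorts select) had 9 of 13 measured genes detected, 7 higher and 2 lower, a median of 0.42 and sums of 2922 and 4015, with Cd3d, Cd3g and Cd5 under the random-sequence level on both arrays. Megakaryocyte genes had a median of -0.06 over 6 detected of 7 measured (sums 2899 and 2412), 4 lower and 2 higher. The platelet genes Ppbp (-1.40) and Pf4 (-1.19) were 2-fold lower, beside 7.29% of all genes, while Itga2b (0.49) and Gp9 (0.05) were higher. B and T lymphoid genes had a median of 0.09 over 10 detected of 15 (sums 6456 and 7065), 6 higher and 4 lower. Gzmb, at 756 and 121 (-2.64), was the only one at 2-fold. The largest higher differences were those of Ms4a1 (0.96, its other sequence -0.15) and Pax5 (0.69). The part of these cells in the marker differences was not tested.

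**Figure D5:**
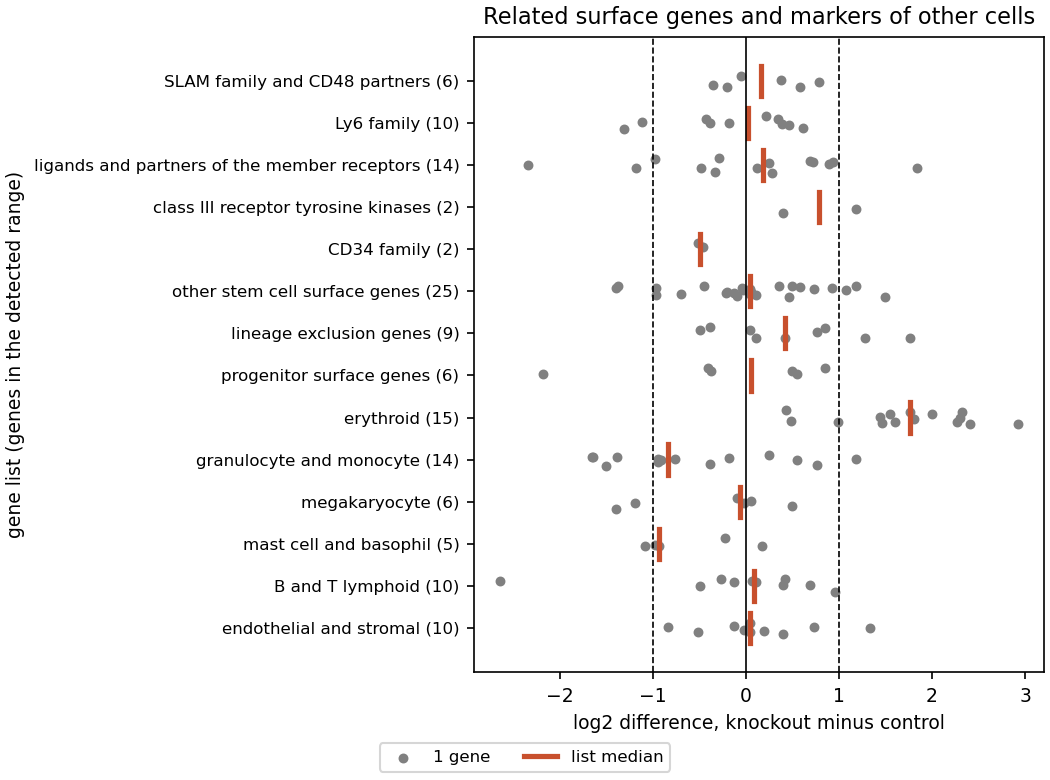
Log2 difference (knockout minus control) of the brightest sequence of each detected gene (grey points) and the median (red bar) of each list, without the marker genes; the number of detected genes stands beside each list name, and dashed lines mark 2-fold. The erythroid list lies to the right (median 1.76) and the granulocyte and monocyte list to the left (median -0.84), while the other stem cell surface genes centre on 0.04.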

How the data were processed

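Gene expression was measured on 2 arrays, 1 for WASH knockout and 1 for control LT-HSC. The deposited values are intensities, 1 for a sequence on each array, which the authors computed with RMA (version not stated in any source here), per the submitters' processing notes. By the probe counts in the deposited tables, each of the 17 marker sequences was summarised from 3 probes, and coordinates are on MM9 per the file headers. The authors' deposited series table repeats these intensities for the 34219 sequences at 50 or more on both arrays, within 0.0412 units. RMA usually pulls array distributions together, so a shift shared by most genes would not show.

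Log2 intensities were used without further scaling (Python 3.11.15, pandas 2.3.3, statsmodels 0.14.6). Gene symbols were updated through RefSeq gene identifiers; 2284 sequences carried none. A gene was represented by its brightest sequence. It was in the detected range when either value exceeded the median (percentile 50) of its array, as 16245 genes (67.2%) did. No test being possible, the count of genes at 2-fold or more was taken. Where 1 value was at or under the random-sequence level, that level replaced it and the fold is a bound. The counting step was run on simulated data with much less noise than the real spread between sequences, and with no detection filter. That run checked the code only and does not bear on the counts given here. The number of arrays limits the precision.

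Marker genes and lists were chosen with earlier results of these data known. Named genes were every marker. For each list they were up to 4 detected genes at 2-fold with all sequences in 1 direction, or else the 2 largest differences. Other list genes (neighbours, receptor ligands and LT-HSC markers) were named for their role after their values were seen. Some were named after their values were seen because they differed in the other direction from those named. Some genes of the lists are not reported here. As 2 arrays give no pattern, no gene was named for one. Alternatives were the series table, centring, quantile normalization, loess (span 0.3), an offset of 50, subtraction of the random-sequence level, the mean or dimmest sequence, 1.5-fold and 3-fold sizes, other filters, and other multiples of the random-sequence level.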

Additional observations from a re-analysis of the deposited data

How the results depend on the processing

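No paired analysis was possible because the knockout and the control have only 1 array apiece. Of 89 alternative values of the marker sequences, 87 moved by less than the spread between sequences of 1 gene and none changed sign. Many could hardly move, since the series table repeats the intensities and centring shifts every sequence equally. Subtracting the random-sequence level gave values only for the 9 sequences above it on both arrays. Signs were also counted for sequences under that level on both arrays, whose direction is not measured. Kit sequence 4 went from 0.16 to 2.35 when the random-sequence level was subtracted, since little signal was left. Cd48 sequence 2 went from -1.76 to -0.74 with an offset. Cd48 was the marker gene at least 2-fold lower with the series table, centring, quantile normalization, loess and the offset. The count was 0 with the random-sequence level subtracted (Cd48 had no value left), 0 with the mean of its sequences (under the detected range) and 0 at 3-fold (as a bound of at least 2.01-fold, Cd48 may or may not pass it). With the dimmest sequence Ly6a took its place. At 1.5-fold, 1 marker gene (Eng) was higher.

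The counts over all genes, 1042 higher and 1185 lower by 2-fold, became 573 and 735 with an offset, 1935 and 2173 with the random-sequence level subtracted, 3004 and 2972 at a size of 1.5-fold, 242 and 280 for 3-fold differences, and 538 and 676 when only genes above percentile 75 were kept; the mean of sequences gave 677 higher and 803 lower. Of the list medians, that of the ligands and partners went to 0.0027 with the mean of sequences, 0.48 with the dimmest sequence and -0.0187 above percentile 75. The receptor tyrosine kinase median went from 0.79 to 0.30, and that of other stem cell surface genes from 0.04 to -0.34, with the mean. The lineage exclusion median was 0.13 with the mean, 0.11 with the dimmest sequence, 0.11 without a filter and 0.70 above percentile 75. The progenitor median was 0.45 with the dimmest sequence and -0.38 without a filter or above percentile 75. The erythroid median was 1.43 with an offset and 1.94 after subtraction, the mast cell and basophil median -0.22 without a filter, and the lymphoid median 0.30 with the dimmest sequence. Beyond these settings' own construction, the causes were not tested. Nearness to the random-sequence level limits Slamf1, Cd48, Procr and Tek most.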
